A study of Mus musculus with 16 samples.

Results

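The Hedgehog pathway genes described here are Hhip, Shh, Ptch1, Smo, Gli1, Gli2 and Gli3. They were taken by name: every probe of the array that is not a control and whose gene is 1 of these 7 symbols. The gene of a probe was read from its RefSeq transcript where that named 1 gene. Otherwise its gene name, or an older synonym of it, was used. The 7 symbols gave 13 probes of 41174. After dim probes were left out, 11 of the 13 remained, and all 7 genes were among the 21631 genes tested, each by the probe with the highest mean signal. A further probe, for the non-coding RNA 9530036O11Rik, carries a name that the reference table lists both as a synonym of Shh and as a separate gene next to it, so its values are given apart and it was not counted.

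The lungs came from pups of the inbred mouse strain BALB/c, exposed at the age of 3 days. The exposure was to ozone at 1000 ppb, or to filtered air for the littermate controls, and lasted 3 h. Whole lungs were collected either 6 h or 24 h later. This gives 4 groups of 4 mice, namely air and ozone at 6 h and air and ozone at 24 h, with 1 array of 1 colour per mouse. The labels name no engineered allele, the 4 lungs per group were drawn at random from a larger group, and pups were with a foster dam during exposure. The time points were run separately, each on slides of its own, so the age of the pup and the run cannot be told apart in any comparison across times.

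Hedgehog ligands are secreted proteins, and in the developing lung Shh is made mainly by the epithelium and acts on the mesenchyme below it. Without ligand the receptor Ptch1 holds back the membrane protein Smo. When ligand binds Ptch1, Smo moves into the primary cilium and the Gli transcription factors turn on target genes, among them Gli1, Ptch1 and Hhip. Hhip is a membrane-bound and secreted protein that binds the ligands and limits their reach, so it is at the same time a target and an inhibitor of the pathway. Gli1 is an activator, Gli2 acts mainly as an activator, and Gli3 is processed to a repressor when no ligand is present.

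Each value below is a level or a difference of levels on the log2 scale, where the level is the log2 processed signal of the probe after the 75th percentile of its array is taken off. Levels of different probes are not compared with each other, since probes bind with different strength. The 75th percentile of the signal lay between 573.8 and 947.6 per array and no spot was saturated. Between 64.99% and 83.88% of the spots of an array were well above background. The highest share was that of ozone replicate 3 at 6 h, while the other arrays of 6 h reached at most 72.45%. That array also stood above the others of its group for several dim probes, which are pointed out below. All 12 epithelial markers looked at passed the filter on dim probes, which by itself does not show that a sample is lung. Sftpc, the gene of surfactant protein C, had mean levels of 9.09 to 9.51 in the 4 groups. No other tissue was compared. The array measures RNA of whole lung, so fewer cells that express a gene and less RNA per cell cannot be told apart. The labels name the samples as separate replicates of 1 mouse each, and p-values measure the spread between them. Litter was not part of the fit, so lungs of littermates were treated as independent.

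The probes that the main results rest on are shown so that a reader can see which stretch of each transcript was measured, 5′ to 3′ and in lower case. For the first Hhip probe and for the second probes of Ptch1 and Smo all 60 bases are given, and for the others the first 30 of 60. The coordinates are on mouse build mm9, as the array's design gives them, and the exons they lie in were not analysed here.

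Hhip, probe used, chr8:82496214-82496273, minus strand: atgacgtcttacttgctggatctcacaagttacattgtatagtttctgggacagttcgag
Hhip, second probe, chr8:82490729-82490788, minus strand: tatagaattatgaccatgagcatgaaagac
Gli3, probe used, chr13:15821502-15821561, plus strand: tgttctcctctgacaagttacgcttgtata
Ptch1, probe used, chr13:63610298-63610357, minus strand: catttggatgttttaatttgtaaaagaaaa
Ptch1, second probe, chr13:63612907-63612966, minus strand: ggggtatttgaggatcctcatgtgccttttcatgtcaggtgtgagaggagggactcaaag
Smo, probe used, chr6:29711225-29711284, plus strand: aatgtctagtcattttcatagtgccccaca
Smo, second probe, chr6:29705582-29706815, plus strand: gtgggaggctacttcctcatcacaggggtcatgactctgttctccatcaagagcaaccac

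The 2 Hhip probes lie 5425 bases apart on the genome and do not overlap, so they are separate readings of the gene. The Ptch1 probe used is poor in G and C, at 21.7% of its bases, against 50% for the second Ptch1 probe. The second Smo probe spans 1234 bases of genome with 60 bases of sequence, so it crosses at least 1 exon junction.

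At 6 h after ozone, 2 of the 7 genes were lower in the ozone lungs by the test across all genes, Hhip and Gli3, and none was higher. Over all 21631 genes 3.11% were called lower and 1.36% higher at this time, 4.48% in all. Hhip fell to 0.707 times its air level and Gli3 to 0.812 times. At 24 h only Gli3 was called among the 7, lower by the same amount as at 6 h, where 1.32% of all genes were called lower, 0.689% higher and 2.01% in either direction. Between unexposed lungs of the 2 times Gli1, Gli2, Gli3, Hhip and Smo were called higher at 24 h, in a comparison where 49.9% of all genes were called with 21.4% higher and 28.5% lower.

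Shh, the ligand, had levels of 0.59, 0.71, 0.36 and 0.72 in the air lungs of 6 h and 0.59, 0.23, 0.42 and 0.47 in the ozone lungs of 6 h, in the order of replicates 1 to 4. The groups overlapped, with the ozone lungs spanning the lower part of the range. The difference, ozone minus air, was -0.17 ± 0.12 (SE, n = 4 per group; limma adjusted p = 0.425). At 24 h the air lungs ran from 0.28 to 0.86 and the ozone lungs from 0.48 to 0.75, with a difference of 0.02 and a 95% interval of -0.23 to 0.27. The Shh probe is printed in 10 spots per array, and the median SD between those spots was 0.08 within an array. The RNA 9530036O11Rik next to Shh gave -0.05 ± 0.20 at 6 h and 0.08 ± 0.20 at 24 h, neither of them called.

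Ptch1, the receptor, had levels of -2.16, -1.95, -1.92 and -2.01 in the air lungs of 6 h and of -2.28, -2.32, -1.90 and -1.92 in the ozone lungs of 6 h. Ozone replicates 1 and 2 lay below every air lung, and replicates 3 and 4 lay among or above them. These pairs were also on separate slides, replicates 1 and 2 on one and 3 and 4 on the other. The difference was -0.09 ± 0.14 at 6 h (limma adjusted p = 0.726) and -0.08 ± 0.14 at 24 h (limma adjusted p = 0.909). The second Ptch1 probe gave 0.11 ± 0.17 at 6 h and -0.10 ± 0.17 at 24 h. Neither probe was called in either comparison, and the 95% intervals of the first, -0.39 to 0.20 at 6 h and -0.38 to 0.21 at 24 h, leave room for changes of either sign.

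Hhip, the ligand-binding inhibitor, showed the largest difference of the 7 genes at 6 h. Its levels were 0.70, 0.55, 0.27 and 0.51 in the air lungs and 0.00, -0.04, -0.14 and 0.21 in the ozone lungs. Every ozone lung lay below every air lung, although ozone replicate 4 and air replicate 3 were only a little apart. Of all genes, 4.87% separated the groups fully with ozone lower. Hhip fell by 0.50 on the log2 scale, from a mean of 0.51 ± 0.18 (SD, n = 4) in air to 0.01 ± 0.15 (SD, n = 4) in ozone, with an SE of 0.11 and a limma adjusted p of 0.0163.

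The second Hhip probe had levels of -0.50, -0.53, -0.23 and -0.26 in the air lungs of 6 h and of -1.22, -0.72, -1.16 and -0.56 in the ozone lungs. Again no ozone lung reached the air range, although ozone replicate 4 at -0.56 lay just below air replicate 2 at -0.53. The difference was -0.53 ± 0.15, close to that of the first probe, but with a limma adjusted p of 0.0552 over 32343 probes, of which 3.68% were called, it did not pass.

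Each slide holds 2 ozone and 2 air lungs of 1 time. With the slide as a block over all arrays the Hhip difference at 6 h kept its call, with a limma adjusted p of 0.0227, and with the slide as a random block it was 0.0156. Within slides, Hhip at 6 h differed by -0.65 on the slide of replicates 1 and 2 and by -0.35 on the slide of replicates 3 and 4. Neither was called. The call at 6 h also depended on single lungs. Without ozone replicate 3, the array with the most spots above background, the difference was -0.45 and the limma adjusted p 0.0502. Without air replicate 4 the difference was -0.50 and the limma adjusted p 0.0597. When the 8 arrays of 6 h were fitted alone, the same difference of -0.50 had a limma adjusted p of 0.072.

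In the lungs of 24 h the Hhip levels were 0.65, 0.88, 0.87 and 0.89 in the air lungs and 0.70, 0.58, 0.38 and 0.77 in the ozone lungs. Air replicates 2, 3 and 4 lay close together and above all ozone lungs, and air replicate 1 lay within the ozone range. The difference was -0.21 ± 0.11 (limma adjusted p = 0.409, 95% interval -0.44 to 0.01), and the second probe gave -0.30 ± 0.15 (limma adjusted p = 0.457). Whether the effect of ozone on Hhip differed between the times was tested directly. The effect at 24 h minus that at 6 h was 0.29 ± 0.15, which was not called (limma adjusted p = 0.438), so these data do not show that the lower level at 6 h had changed by 24 h. In that test 0.0647% of all genes were called and 12.5% had an unadjusted p under 0.05. Among the 7 genes 0 were called by limma and 0 had an unadjusted p under 0.05.

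**Figure D1:**
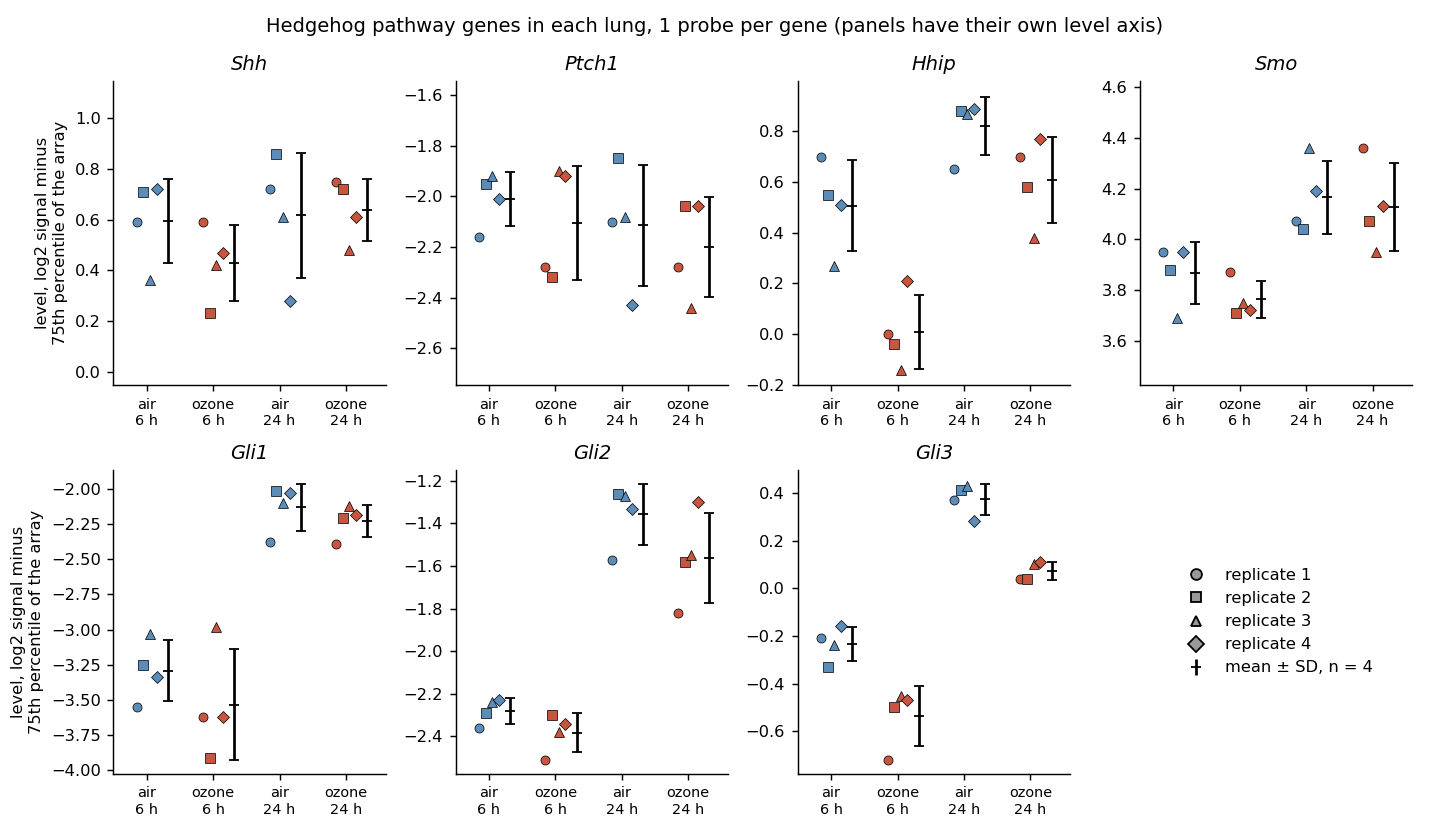
Level of each gene in each lung, by its probe with the highest mean signal. The horizontal axis gives the 4 groups (blue, air and red, ozone) and the vertical axis the log2 signal minus the 75th percentile of the array, on an axis of its own for each gene. Symbols mark replicates 1 to 4 and black bars the mean ± SD of 4 lungs. For Hhip at 6 h and for Gli3 at both times no red point reaches a blue point of the same time, and Gli1, Gli2 and Gli3 sit higher at 24 h than at 6 h in both groups.

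Smo, the membrane protein that Ptch1 holds back, had levels of 3.69 to 3.95 in the air lungs of 6 h and 3.71 to 3.87 in the ozone lungs, so the ozone range lay inside the air range. The difference was -0.10 ± 0.09 at 6 h (limma adjusted p = 0.539) and -0.04 ± 0.09 at 24 h (limma adjusted p = 0.945). The second Smo probe was well above background on 15 of 16 arrays. Its levels at 24 h were -3.01, -2.77, -2.75 and -2.81 in air and -3.72, -3.40, -3.13 and -3.00 in ozone, with a difference of -0.48 ± 0.23 that was not called (limma adjusted p = 0.446). At 6 h ozone replicate 3 stood out on this probe at -3.51, where the other 7 lungs ran from -4.92 to -4.17. The last Smo probe was above background on 1 array only, ozone replicate 3 of 6 h, and was left out of the test.

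Gli1, whose RNA is a common readout of pathway activity, had levels of -3.55, -3.25, -3.03 and -3.34 in the air lungs of 6 h and of -3.62, -3.91, -2.98 and -3.62 in the ozone lungs. Ozone replicates 1, 2 and 4 lay below all air lungs, and ozone replicate 3 lay above all of them. The difference was -0.24 ± 0.17 and was not called (limma adjusted p = 0.437). This value moved with the processing of the arrays. With a normexp background it was above 0, at 0.105 (limma adjusted p = 0.708). With quantile normalization Gli1 was lower at 6 h by -0.45 with a limma adjusted p of 0.0408, and a limma fit of the authors' deposited log2 table, in which the sorted values of the arrays of a time are equal, gave -0.44 with an adjusted p of 0.0404. Without ozone replicate 3, at the main scaling, the difference was -0.42 with a limma adjusted p of 0.127. At 24 h the levels were -2.38 to -2.02 in air and -2.39 to -2.12 in ozone, with a difference of -0.10 ± 0.17 (limma adjusted p = 0.917). The Gli1 probe has 10 spots per array with a median SD between spots of 0.10 within an array.

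Gli2 had levels of -2.36, -2.29, -2.24 and -2.23 in the air lungs of 6 h and of -2.51, -2.30, -2.38 and -2.34 in the ozone lungs, and ozone replicates 2 and 4 lay above the lowest air lung. The difference was -0.10 ± 0.11 at 6 h (limma adjusted p = 0.619). At 24 h the air lungs had -1.57, -1.26, -1.27 and -1.33 and the ozone lungs -1.82, -1.58, -1.55 and -1.30, a difference of -0.21 ± 0.11 that was not called (limma adjusted p = 0.452). Over all probes 1.56% were called at 24 h. A second Gli2 probe was well above background on 9 of 16 arrays, which were the 8 arrays of 24 h and ozone replicate 3 of 6 h. It adds no reading at 6 h, and at 24 h it gave -0.77 ± 0.66. As for every probe, this SE rests on the spread in all 16 arrays, not on those of 24 h alone. The SD of this probe was 1.91 in ozone at 6 h, and 0.67 in air and 0.16 in ozone at 24 h.

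Gli3 had levels of -0.21, -0.33, -0.24 and -0.16 in the air lungs of 6 h and of -0.72, -0.50, -0.45 and -0.47 in the ozone lungs. At 24 h the air lungs had 0.37, 0.41, 0.43 and 0.28 and the ozone lungs 0.04, 0.04, 0.10 and 0.11. At both times all ozone lungs lay below all air lungs of the same time, as did 4.96% of all genes at 24 h. Gli3 fell by 0.30 at 6 h, with an SE of 0.07 and a limma adjusted p of 0.0292, and by 0.30 at 24 h, with an SE of 0.07 and a limma adjusted p of 0.0412. The difference of the effects between times was 0.00 with a 95% interval of -0.22 to 0.22. The comparisons at 6 h and at 24 h share no sample, so they are separate readings of Gli3, although 1 estimate of the spread was used for both.

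The size of the Gli3 difference at 6 h moved with the scaling, from -0.21 with a normexp background (limma adjusted p = 0.17) to -0.47 with median scaling (limma adjusted p = 0.0323). At 24 h it was -0.27 with normexp (limma adjusted p = 0.084) and -0.30 with median scaling (limma adjusted p = 0.387), neither of them called. With the slide as a block over all arrays Gli3 kept its call at both times, with limma adjusted p-values of 0.0316 at 6 h and 0.0446 at 24 h, and with a random block they were 0.0279 and 0.0396. Within the slides of replicates 1 and 2 and of replicates 3 and 4, Gli3 differed by -0.34 and -0.26 at 6 h and by -0.35 and -0.25 at 24 h, none of them called. Leaving out 1 array at a time moved the difference at 6 h between -0.33 and -0.24, and the call was lost without ozone replicate 1, ozone replicate 2, air replicate 1 or air replicate 4 of 6 h. At 24 h the same exercise gave -0.33 to -0.28, with limma adjusted p-values of 0.0191 to 0.124 and a call in 7 of 16 fits. Lungs with low Xist, a gene expressed in females, were 2 of the 4 ozone lungs and 1 of the 4 air lungs of 6 h. Among the lungs of 24 h they were 3 of 4 in ozone and 1 of 4 in air. With Xist as a covariate the Gli3 difference was -0.30 at both times, with limma adjusted p-values of 0.051 and 0.124. The second Gli3 probe was above background on 1 of 16 arrays and gave no second reading.

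**Figure D2:**
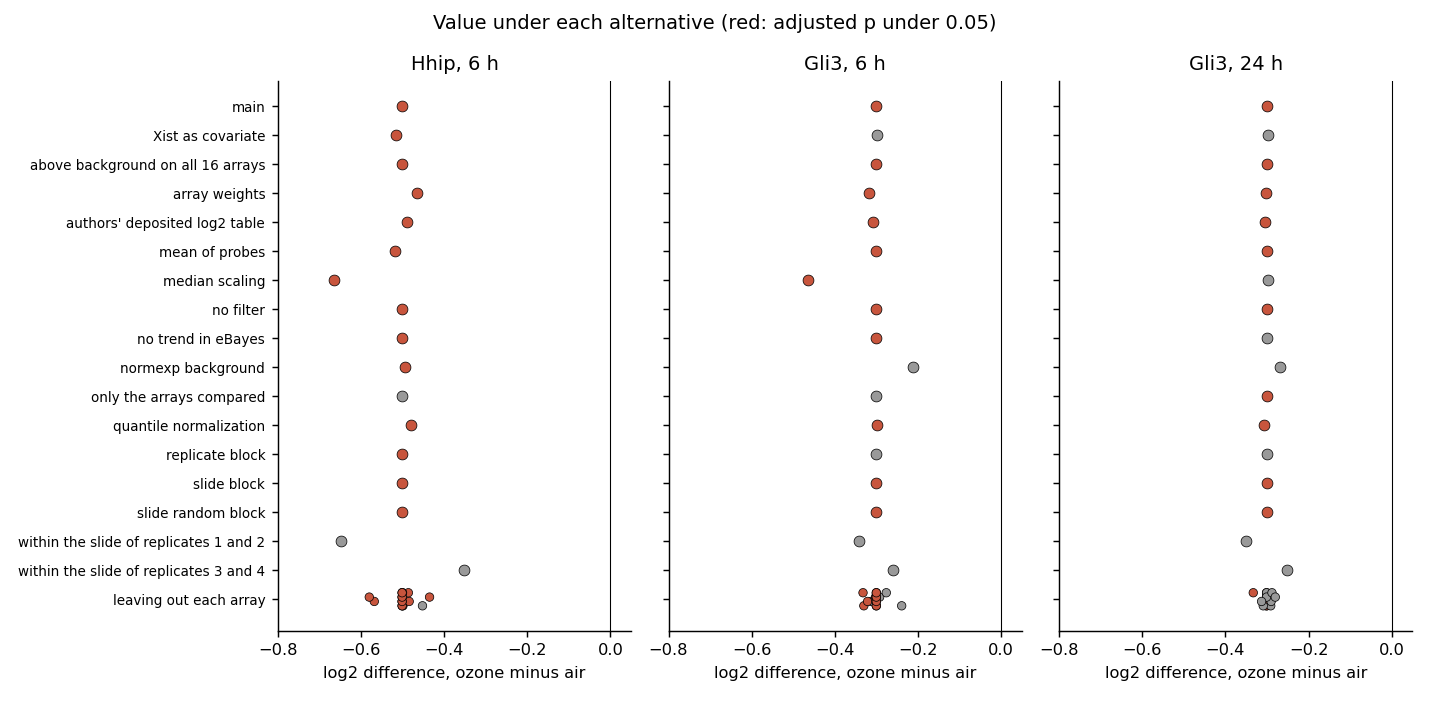
Differences of Hhip at 6 h and of Gli3 at 6 h and 24 h, ozone minus air in log2 units on the horizontal axis, under each way of processing on the vertical axis, with the fits that leave out 1 array at the bottom. Red points have an adjusted p under 0.05 and grey points do not. All points lie below 0, Hhip between -0.67 and -0.35 and Gli3 between -0.47 and -0.21 at 6 h and between -0.35 and -0.25 at 24 h, while the colour changes between settings.

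Taken as a list, the 7 genes had differences at 6 h from -0.50 to -0.09, all of them below 0, with a median of -0.17 where the median of all genes was 0.07. With a normexp background 4 of the 7 were below 0 and the median of all genes was 0.14. With the mean of probes 5 were below 0, and within the slide of replicates 3 and 4 it was 6. Ptch1 and Gli2 were above 0 with the mean of probes, at 0.01 and 0.23 (SE 0.34 for Gli2). That mean takes in the second Gli2 probe, which adds no reading at 6 h. At 24 h the differences ran from -0.30 to 0.02, with 6 of 7 below 0 and a median of -0.10 against 0.02 for all genes. The genes are not independent of each other, and they were chosen with earlier results of these data known. Their deviations from the group means were only loosely related over the 16 arrays, which share their scan and scaling: of 21 pairs 12 had a Pearson r above 0, and r ran from -0.36 for Gli1 with Hhip to 0.55 for Hhip with Smo. Gli3 and Hhip, the genes called at 6 h, had an r of -0.01. Without ozone replicate 3 of 6 h, r was -0.20 for Gli1 with Hhip, 0.58 for Hhip with Smo and 0.12 for Gli3 with Hhip, and that of Gli1 with Gli3 turned from 0.14 to -0.20.

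**Figure D3:**
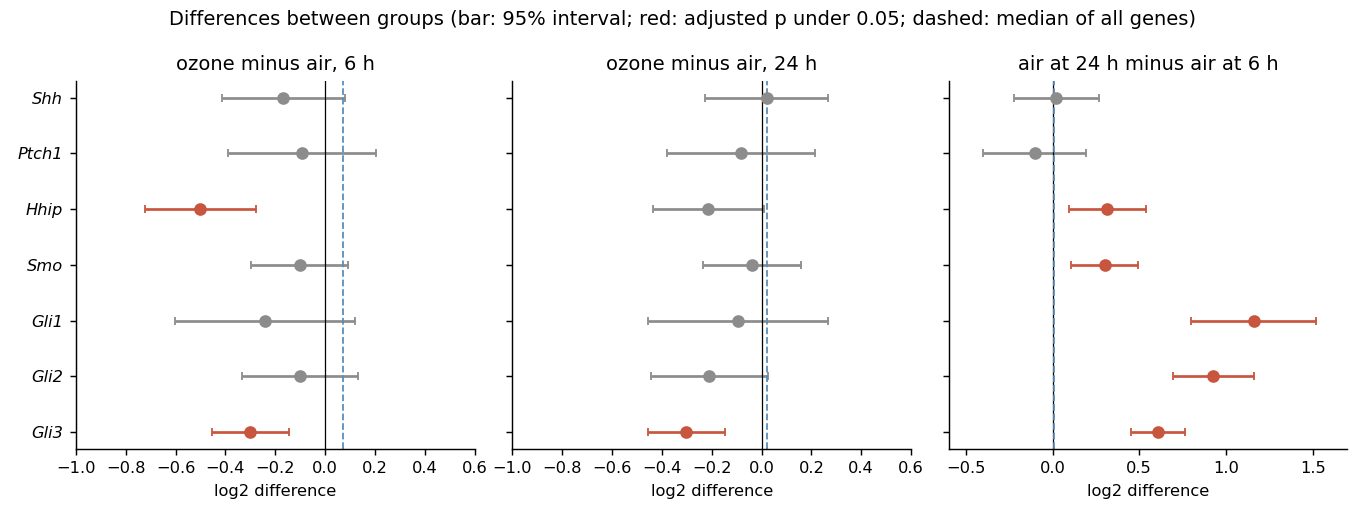
Differences between groups for the 7 genes on the log2 scale, with 95% intervals from limma, in 3 panels, namely the ozone effect at 6 h, the ozone effect at 24 h and the air lungs of 24 h against those of 6 h. Red marks an adjusted p under 0.05, the dashed line the median of all genes. Hhip and Gli3 are red in the first panel, Gli3 alone in the second, and Gli1, Gli2, Gli3, Hhip and Smo in the third.

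In the unexposed lungs Gli1 was higher at 24 h than at 6 h by 1.16 ± 0.17 (limma adjusted p = 2.22e-05), which is 2.23 times the level. Gli2 was higher by 0.93 ± 0.11 (limma adjusted p = 2.29e-06) and Gli3 by 0.61 ± 0.07 (limma adjusted p = 2.49e-06). Hhip was higher by 0.32 ± 0.11 (limma adjusted p = 0.0195) and Smo by 0.30 ± 0.09 (limma adjusted p = 0.012), and both calls were lost with median scaling, at 0.21 and 0.20. That of Smo was also lost with a normexp background, at 0.23 (limma adjusted p = 0.0637). The difference of Hhip had a limma adjusted p of 0.0736 without air replicate 3 of 6 h and of 0.0508 without either air replicate 2 or air replicate 4 of 24 h. That of Smo had 0.0505 without air replicate 3 of 24 h. Shh differed by 0.02 ± 0.12 and was not called.

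The probes of Ptch1 disagreed across the times. The probe used gave -0.10 ± 0.14 between air lungs of 24 h and 6 h (limma adjusted p = 0.57), while the second probe rose from levels of -4.36, -3.99, -4.18 and -4.37 at 6 h to -3.20, -2.89, -3.20 and -3.13 at 24 h, by 1.12 ± 0.17 (limma adjusted p = 3.36e-05 over probes, of which 50.4% were called). With the mean of both probes Ptch1 was higher by 0.51 (limma adjusted p = 0.00679), so the direction for Ptch1 depends on the probe. Smo showed a gap of size as well, with 0.30 ± 0.09 for the probe used and 1.51 ± 0.23 for the second. In both cases the probe not used for the gene gave the larger difference. The share of spots above background also differed by time, at 65.94% to 72.45% in air at 6 h and 76.01% to 81.0% in air at 24 h. The part of this share in the results was not tested.

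**Figure D4:**
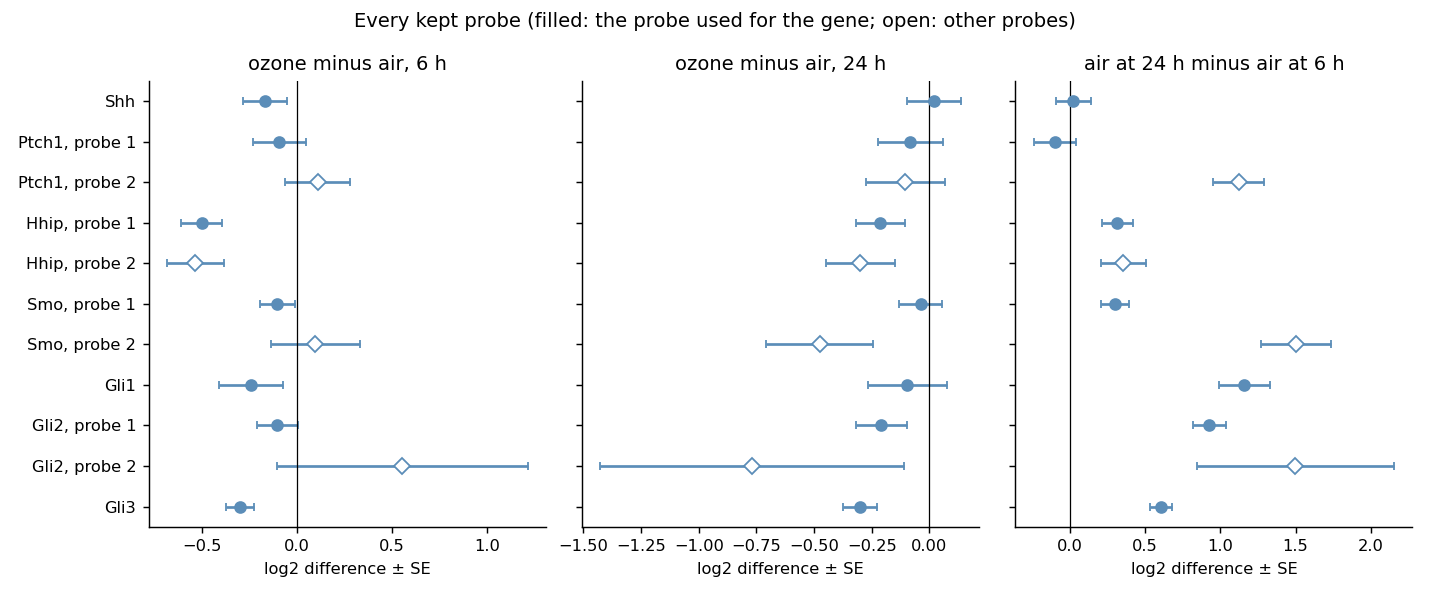
Difference ± SE on the log2 scale for each of the 11 probes kept, with filled circles for the probe used for its gene and open diamonds for other probes. The probes of Hhip agree within their errors in all 3 panels. The probes of Ptch1 and of Smo lie apart in the right panel, at -0.10 and 1.12 for Ptch1 and at 0.30 and 1.51 for Smo.

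The other genes of the pathway were described from 5 lists, of which Scube3, Gpc5 and Wnt2b did not pass the filter on dim probes and Foxl1 was not found among the probe names. Of the ligands and proteins that lipidate or release them, 6 were tested, and limma called none at 6 h or 24 h, with 0 at an unadjusted p under 0.05 at either time. Of all genes 21% had such an unadjusted p at 6 h and 13.3% at 24 h. Their smallest p at 6 h was that of Scube2, a secreted protein that helps to release the ligand, with 0.23 ± 0.12 (limma adjusted p = 0.291), and at 24 h that of Hhat, the enzyme that attaches palmitate to the ligand, with 0.23 ± 0.13 (limma adjusted p = 0.484). The median difference of the list was 0.11 at 6 h and 0.09 at 24 h, beside 0.07 and 0.02 for all genes.

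Of 8 receptors and co-receptors limma called none in either comparison, 0 at 6 h and 1 at 24 h had an unadjusted p under 0.05, and the list had medians of 0.05 and -0.05. Boc, a co-receptor that binds the ligand together with Ptch1, had the smallest p at 24 h, with -0.32 ± 0.10 and all ozone lungs below all air lungs (limma adjusted p = 0.102).

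Of 21 intracellular regulators 1 was called at each time, beside 4.48% of all genes at 6 h and 2.01% at 24 h. It was the same gene, Stk36, the mammalian relative of the fly kinase Fused, which in mice is needed for motile cilia. Its levels at 6 h were 0.04, -0.15, -0.19 and -0.08 in air and 0.47, 0.05, 0.60 and 0.36 in ozone. At 24 h they were -0.36, -0.36, -0.27 and -0.29 in air and 0.44, 0.22, 0.16 and 0.22 in ozone. The ozone lungs lay above the air lungs at both times, by a narrow margin at 6 h and a wide one at 24 h, as did 4.61% of all genes at 6 h and 6.8% at 24 h. Stk36 rose by 0.47 ± 0.10 at 6 h (limma adjusted p = 0.0172) and by 0.58 ± 0.10 at 24 h (limma adjusted p = 0.00395). A second probe gave 0.54 ± 0.09 at 6 h (limma adjusted p = 0.00494) and 0.47 ± 0.09 at 24 h (limma adjusted p = 0.0105). The remaining, dim probe gave 1.34 ± 0.59 and 0.36 ± 0.59, neither called. At 6 h the call of the probe used was lost without ozone replicate 3 (0.39, limma adjusted p = 0.0526), without air replicate 4 (0.47, limma adjusted p = 0.0621) and with median scaling (0.30, limma adjusted p = 0.145). It was also lost with the mean of probes, which takes in the dim probe (0.78, limma adjusted p = 0.06), with the replicate number as a block (limma adjusted p = 0.0531), with the arrays of 6 h alone (limma adjusted p = 0.104) and within the slide of replicates 1 and 2 (0.32, limma adjusted p = 0.382). Its call at 24 h was lost with the mean of probes (0.47, limma adjusted p = 0.428) and within the slides of replicates 1 and 2 (0.69, limma adjusted p = 0.0651) and of replicates 3 and 4 (0.47, limma adjusted p = 0.21).

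Of 16 genes of transport in the primary cilium, 1 was called at 6 h and none at 24 h, beside 4.48% and 2.01% of all genes. Ift20, a subunit of the complex that carries cargo into the cilium, had levels of 4.41, 4.17, 4.45 and 4.52 in the air lungs of 6 h and of 4.12, 4.12, 4.06 and 4.16 in the ozone lungs. The ozone lungs were close together and just below the lowest air lung. Ift20 fell by 0.27 with an SE of 0.07 and a limma adjusted p of 0.0479, a call that was kept in only 4 of 16 alternatives and 3 of 16 fits without 1 array. In these last fits the limma adjusted p ranged from 0.00567 to 0.181. A second Ift20 probe gave -0.29 ± 0.09 at 6 h, with ozone replicate 4 at 4.02 above air replicate 2 at 3.96. In the fit over probes neither was called, with limma adjusted p-values of 0.0534 for the probe used and 0.0794 for the second. At 24 h Ift20 differed by 0.13 ± 0.07 (limma adjusted p = 0.489), and Ift80, another subunit, had the smallest p of the list with -0.20 ± 0.09 (limma adjusted p = 0.31).

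Of 15 genes described as targets of the pathway in mesenchyme limma called none at 6 h or 24 h and 2 at each time had an unadjusted p under 0.05, with medians of 0.09 and 0.01 beside 0.07 and 0.02 for all genes. Ccnd1, the gene of cyclin D1, which drives entry into the cell cycle, had the smallest p at 6 h, with -0.37 ± 0.10 and all ozone lungs below all air lungs (limma adjusted p = 0.0518). At 24 h it was Bmp4, a growth factor of the lung mesenchyme, with 0.23 ± 0.09 (limma adjusted p = 0.205). Between air lungs of the 2 times 11 of these 15 genes were called higher at 24 h and 2 lower. In this comparison 21.4% of all genes were called higher and 28.5% lower. The median of the 15 genes was 0.55 beside 0.01 for all genes. The other lists had 2 of 6 higher and 1 lower for ligands, 3 of 8 and 2 for receptors, 11 of 21 and 4 for regulators, and 4 of 16 and 5 for transport.

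**Figure D5:**
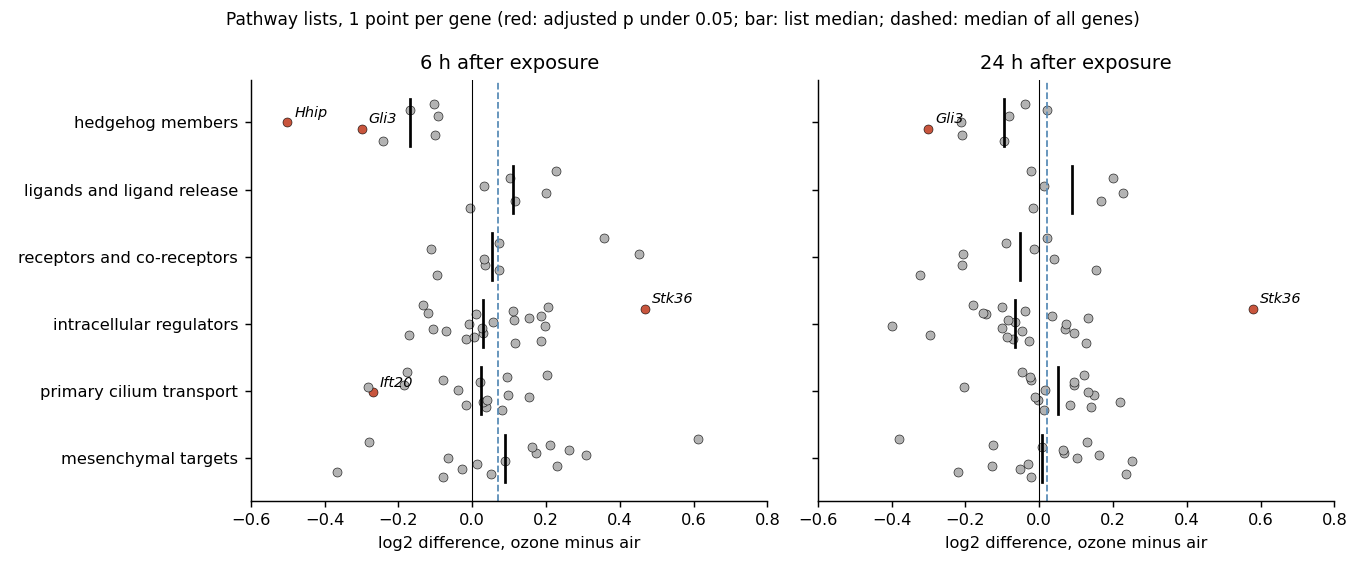
Difference, ozone minus air in log2 units on the horizontal axis, of each tested gene of the 7 members and of the 5 pathway lists at 6 h and at 24 h. Red points have an adjusted p under 0.05 and are named, black bars are list medians and the dashed line is the median of all genes, at 0.07 and 0.02. Hhip, Gli3 and Ift20 are red on the lower side and Stk36 on the higher side at 6 h, and Gli3 and Stk36 at 24 h.

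Markers of the cells that send and receive the signal were set beside these values. A summed level below is the log2 of the sum of a list's genes on the linear scale. The brightest probes therefore weigh most in it, and it does not stand for the list as a whole. None of 12 epithelial, 12 fibroblast, 10 smooth muscle and myofibroblast or 8 endothelial markers was called by limma in either ozone comparison, where 6 of the 42 had an unadjusted p under 0.05 at 6 h and 4 at 24 h, beside 21% and 13.3% of all genes. The summed level of the smooth muscle and myofibroblast markers was 7.75 to 8.39 in air and 7.60 to 7.91 in ozone at 6 h, and 8.00 to 8.10 and 7.92 to 8.01 at 24 h, while that of the fibroblast markers was 8.26 to 8.74 and 8.38 to 8.59 at 6 h and 8.81 to 8.97 and 8.65 to 8.90 at 24 h. Of 10 markers of dividing cells 3 were called lower at 6 h and 10 at 24 h, beside 3.11% and 1.32% of all genes. Their summed levels were 5.22 to 5.58 in air and 4.93 to 5.43 in ozone at 6 h, and 5.58 to 5.82 and 4.53 to 5.09 at 24 h. Of 8 leukocyte markers 3 were called higher at 24 h, beside 0.689% of all genes, and none was called at 6 h. At 24 h 4 of these 8 differences were above 0 and 4 below 0. The summed level of the leukocyte markers at 24 h was 6.26 to 6.66 in air and 6.12 to 6.55 in ozone. In that sum S100a9 weighed most, with mean levels of 6.08 in air and 5.92 in ozone. Mpeg1 had 2.79 and 3.32, Cd79b 1.13 and 1.83, and Csf1r 0.53 and 0.85, and these genes hardly count in it. None of 7 cartilage and 8 heart muscle markers was called at either time. Heart markers summed to 6.55 to 7.32 in air and 6.47 to 6.84 in ozone at 6 h, and cartilage markers to 2.17 to 2.48 and 2.13 to 2.69, and Matn1, Matn3 and Cnmd, 3 other cartilage markers, did not pass the filter on dim probes. The part of these cells in the Hhip and Gli3 values was not tested.

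The genes whose array-to-array pattern was most like that of Hhip, over 16 arrays after each group mean was taken off, were Ddt (Pearson r = 0.88), Ptger4 (0.86), Myo3b (0.86), F3 (0.85) and Tst (0.85). Without ozone replicate 3 of 6 h these values of r were 0.83 to 0.87. For Ptch1 they were Tmem74 (0.87), Olfr63 (0.80), Nap1l3 (0.80), Abhd13 (0.79) and Dapp1 (0.78). For Gli1 they were Zswim4 (0.93), Spaca5 (0.91), Rin1 (0.91), Npbwr1 (0.90) and Prr30 (0.90), and without that array they were 0.76 to 0.84. On Gli1 that array lay 0.55 above its group mean, where the largest deviation of any other array was 0.38. These are the highest of 21630 values for each gene, from arrays that share a scan and a scaling, and are given as a description.

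The promoters of Hhip and Gli3, the genes that were lower at 6 h, were read from RefSeq on build GRCm38.p6 as the 250 bases before the transcript start, 5′ to 3′ on the strand of the gene. No base is in capitals because no motif searched was found in them.

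Hhip, chr8:80058009-80058258, minus strand: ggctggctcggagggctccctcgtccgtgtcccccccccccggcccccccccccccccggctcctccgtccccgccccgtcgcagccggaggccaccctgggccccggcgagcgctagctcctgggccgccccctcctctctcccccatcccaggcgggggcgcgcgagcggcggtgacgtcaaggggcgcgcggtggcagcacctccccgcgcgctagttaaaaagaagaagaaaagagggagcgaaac
Gli3, chr13:15463473-15463722, plus strand: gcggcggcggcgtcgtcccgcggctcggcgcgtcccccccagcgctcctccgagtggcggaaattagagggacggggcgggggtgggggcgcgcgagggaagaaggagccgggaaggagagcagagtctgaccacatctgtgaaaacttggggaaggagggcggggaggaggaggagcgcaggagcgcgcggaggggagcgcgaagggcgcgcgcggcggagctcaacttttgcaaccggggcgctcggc

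Both stretches are rich in G and C, at 76.0% and 72.8% of bases, and hold 28 and 34 CG pairs. The table holds promoters of 5 of the 7 genes, namely Hhip, Ptch1, Smo, Gli2 and Gli3, as 300 bases each with 50 past the start. The binding motif of the Gli factors, GACCACCCA, and its shorter core, CCACCCA, which lies within it, were searched on both strands. Neither was found in any of the 5, where 0.253% of all 32851 promoters of the table hold the first and 9.30% the second. This says only that these letters are not in these windows.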

How the data were processed

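The deposited scanner files give spot intensity on a linear scale. They come from Agilent Feature Extraction per the submitters' processing notes, in version 10.7.1.1 per the file headers. Other values deposited with them are flags for spots above background, saturated or uneven. A table of log2 values was deposited as well, normalized within each time and used only as an alternative, whose columns had medians of 6.41 (6 h) and 6.73 (24 h) and followed log2 of the scanner signal. The treatment of its background was not given in the sources used here.

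Spots of a probe were averaged. Of 41174 probes, 32343 that were well above background on at least 4 of 16 arrays and on no array uneven (157 left out) were kept. Levels were fitted with limma 3.58.1 in R 4.3.3 (lmFit, eBayes with a trend, 1 mean per group), with Benjamini-Hochberg adjusted two-sided p-values over 21631 genes, called under 0.05. The number of arrays limits the precision, with a median SE of 0.13. The fit was tested on simulated data. The genes and lists were chosen with earlier results of these data known. Named genes are all 7 members, every called gene of a pathway list or else its smallest p, and the 5 most alike genes of Hhip, Ptch1 and Gli1 (clone names passed over); the receptor list's gene at 6 h is not reported here. Alternatives are in the closing section. Replicate numbers were tested as a pairing.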

Additional observations from a re-analysis of the deposited data

Results flagged for a closer look

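On the Hhip probe used, air replicate 1 of 24 h had a level of 0.65, where the other 3 air lungs of 24 h lay between 0.87 and 0.89. Its gap to the nearest lung was 0.936 of the range of the group. On the second Gli2 probe ozone replicate 3 of 6 h had a level of -3.37 and the other 3 lungs of its group lay between -7.39 and -6.91, a gap of 0.881 of the range. This is the array with the highest share of spots above background. Both gaps are above Dixon's 95% critical value for 4 samples, which chance passes in about 5% of groups, or 1 in 20. Of 44 groups looked at, 2 met it.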

How the results depend on the processing

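Of the 7 genes, 2 were called at 6 h in the main fit. The count was 1 with a normexp background and with Xist as a covariate, and 0 within either slide and in the fit of the arrays of 6 h alone. It was 3 with quantile normalization and with the authors' deposited table, and between 0 and 2 without 1 array. At 24 h 1 gene was called, and none with a normexp background, with median scaling, without a trend, with Xist or within either slide, and 0 to 1 without 1 array. For air at 24 h minus air at 6 h the count of 5 was 3 with median scaling, 4 with normexp, 6 with the mean of probes and 4 to 5 without 1 array, and Ptch1 reversed to 0.509 with the mean of its probes. The difference between the times gave 0 calls in all 12 alternatives. Hhip at 6 h was called in 13 of 16 alternatives and Gli3 in 10 of 16 at 6 h and 9 of 16 at 24 h, without a change of sign in any. The cause of the changes was not tested. Comparisons within a slide set fewer lungs against each other, and fits of 1 time use only the arrays of that time.

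Same-numbered ozone and air lungs had correlations of deviations of -0.007 to 0.195, and 3 of 8 ozone arrays were most like the air array of their own number, so the numbers were not taken as a pairing. With the replicate number as a block, 1 member was called at 6 h and 0 at 24 h, beside 247 and 261 of all genes.

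Over all genes, 968 were called at 6 h, 435 at 24 h and 14 for the difference. At 6 h the count was 1814 with array weights, 546 without a trend, 558 with Xist, 100 with the arrays of 6 h alone and 53 and 760 within the slides. At 24 h it was 1738 with array weights, 654 with normexp, 586 with the arrays of 24 h alone, 256 with median scaling and 245 with Xist. Within the slides of 24 h it was 47 and 255. For the difference it was 547 with normexp, 441 with array weights, 38 with quantile normalization, 6 with the slide as a block, 4 without a trend and 1 with median scaling or the replicate block. The share of calls that were higher at 6 h, 30.5%, was 15.9% with normexp and 4.07% with median scaling, and at 24 h the share of 34.3% was 50.2% and 18%. Median scaling moved the median of all genes at 6 h from 0.07 to -0.09, and normexp moved it at 24 h from 0.02 to -0.13 and across the times from 0.01 to 0.20. Dim probes, with signal near background, limit what can be said of the second probes of Gli2 and Gli3 and of the third of Smo.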
